A study of Mus musculus with 7 samples.

Results

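The late-annotated miRNAs described here are the rows of a mouse miRNA count table whose name carries the number 1000 or higher. Left out were miR-1839, miR-1981 and the rows in a fixed interval of chromosome 12 taken for the Dlk1-Dio3 cluster. miR-1247, in the gene Dio3os next to Dio3, lies outside this interval, so its arms stayed among the members. The rule took 204 of 1078 rows and left out 20. Counting each mature name once, these rows held 199 of the 951 miRNAs of the table. In the study, Argonaute2 (Ago2), the protein that carries a miRNA to its targets, was tagged with Flag, put into mouse embryonic stem cells of an Ago-null background, and precipitated with an anti-Flag antibody, and the small RNAs bound to it were sequenced. The 7 groups were wild-type Ago2, the mutants K566A, Q548A, R792A_C793A, GKT_GKGT and PGKTP_AAAAA (named as the labels name them), and an empty control from the same cells. Each group had 1 library, so no difference below has a replicate check, every comparison is between 2 libraries and no p-value is given. The sources used here do not give the number of clones behind each group, the promoter of the tagged protein or its level. The question the study's title names is how Argonaute itself takes part in the choice of 1 strand of the miRNA duplex.

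A miRNA gene is transcribed into a hairpin whose stem is cut into a short duplex. The strands of this duplex are called the 5p and the 3p arm after the side of the hairpin they come from. Argonaute keeps 1 strand as its guide and the other is lost, and the guide's first base sits in a pocket of the MID domain of the protein, next to the contacts for its 5′ phosphate. The bases that follow form the seed, which pairs with target messages. miRNAs are numbered in the order of their discovery, and those with high numbers came largely from deep sequencing. Many are scarce, many lie inside host genes, and some are mirtrons, hairpins whose end is a splice site of a short intron so that splicing takes the place of a cut by Drosha.

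Mature sequences were matched to RefSeq (GRCm38.p6) for 161 of the 199 members, and all 161 had the length of the interval in the table. Of these, 57 began with U, 46 with C, 34 with A and 24 with G. The sequences the results turn on are printed 5′ to 3′ with the seed, bases 2 to 8, in capitals. The most abundant member and, of the members averaging 10 CPM or more (counts per 1000000 of the library), the one that moved most upward in K566A beside miR-1934 are
miR-1198-5p: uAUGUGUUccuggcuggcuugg
miR-1943-5p: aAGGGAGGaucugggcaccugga
and the arms of 3 hairpins whose arm use is described below, in each of which the arms differ in their first base, are
miR-1934-5p: uCUGGUCCccugcuucguccucu
miR-1934-3p: aGGAUGACgguggggcugguga
miR-3067-5p: aGUUCUCAggcccgcuguggugu
miR-3067-3p: cCAAGCGGcugcccugggagagg
miR-3068-5p: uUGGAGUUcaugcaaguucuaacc
miR-3068-3p: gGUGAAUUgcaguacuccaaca
Of the members averaging 10 CPM or more, those that fell furthest in K566A come from hairpins at the ends of introns or across an exon boundary and are
miR-3102-5p.2-5p: gGUGGUGCaggcaggagagcc
miR-3057-5p: aUUGGAGCugagauucugcgggau
miR-3077-3p: cUGACUCCcugcuucuccgcag
miR-3062-5p: gGAGAAUGuaguguuaccguga
and the member whose locus is shared with an older miRNA of another seed is shown with that miRNA as
miR-3074-5p: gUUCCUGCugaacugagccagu
miR-24-3p: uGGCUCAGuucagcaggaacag

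Depth set what could be read. Total counts, each mature sequence taken once, ran from 14914271 in K566A to 94844631 in wild type, and the empty control held 33466. Levels are in CPM. Where a member had no count, up to 3 could have been missed, a limit of 0.0316 CPM for wild type, 0.201 for K566A and 89.6 for the empty control. The reads carry no molecular identifiers, so these limits and all intervals cover counting error only. As a check of the labelled cell type, the 9 embryonic stem cell miRNAs of the miR-290 and miR-302 families summed to 123230 CPM in wild type, with none at 0, and to between 60220 CPM in GKT_GKGT and 374142 CPM in K566A over the Ago2 libraries. Of these 6 libraries, K566A also held the highest summed levels of miRNAs known from other cell types: 6 of fibroblasts (4608 CPM against 1093 in wild type), 3 of endothelium and blood (1496 against 163, with 1 at 0 in wild type), 3 of skin and muscle (370.1 against 223) and 3 of neural cells (25017 against 3967). Their part in the K566A results below was not tested.

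The late-annotated miRNAs were scarce in every library. They held 0.163% of all counts in wild type, 0.170% in K566A, 0.169% in R792A_C793A, 0.156% in Q548A, 0.160% in GKT_GKGT and 0.122% in PGKTP_AAAAA. PGKTP_AAAAA was the low one, with an exact binomial 95% interval of 0.120% to 0.123%, while the other Ago2 libraries lay between 0.156% and 0.170%. With miR-292-5p, the most abundant miRNA of the table, left out of the total, K566A had the lowest share of the 6, at 0.217%, and PGKTP_AAAAA stood at 0.3998%. The empty control held 60 member counts, a share of 0.179% with an interval of 0.137% to 0.231%, which spans the values of wild type, K566A, Q548A, R792A_C793A and GKT_GKGT. Of the 199 members, 40 had no count in any library. In wild type, 140 members had counts and the median member stood at 0.116 CPM, against 3.66 CPM for the 752 other miRNAs of the table. By mean CPM over the 6 Ago2 libraries, 140 members lay under 1 CPM, 38 between 1 and 10 CPM, and 21 at 10 CPM or more, of which 5 exceeded 100 CPM. A mean of 10 CPM was the level asked for before a miRNA was compared between libraries, and 10.6% of members reached it against 42.2% of the other miRNAs. Just inside stood miR-1247-3p at 12.9, miR-3077-3p at 11.8 and miR-3081-3p at 10.6 CPM, and just outside miR-3067-3p at 8.99, miR-1231-3p at 8.63 and miR-1843-3p at 8.14 CPM. For 4 of the 21 members, 1 library alone carried the mean past 10 CPM. Over the 5 libraries other than GKT_GKGT, miR-3062-5p averaged 6.23 and miR-3077-3p 5.97 CPM. Over the 5 other than K566A, miR-1247-3p averaged 9.1 and miR-3081-3p 7.25 CPM. A few members made up most of the group: the 5 highest held between 59.3% (GKT_GKGT) and 65.8% (Q548A) of member counts in the Ago2 libraries.

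miR-1198-5p was the most abundant member, with a mean of 333 CPM and rank 84 of 951. Its locus, X:7384268-7384289 in mm9, lies in an intron of Gripap1, a gene for a protein of endosomal traffic. In the order wild type, K566A, Q548A, R792A_C793A, GKT_GKGT and PGKTP_AAAAA, used below wherever libraries are not named, its level was 304, 278, 369, 399, 323 and 324 CPM. All 6 values lay close together, and no mutant passed the 2-fold threshold that is set out below. miR-1249-3p (15:84781975-84781996, intron of 5031439G07Rik) stood at 156, 233, 119, 132, 121 and 114 CPM, high in K566A and alike in the others. miR-1306-5p (16:18284381-18284403) stood at 116, 93.9, 88.1, 194, 151 and 109.7 CPM. Its hairpin lies in an exon of Dgcr8, the gene of the RNA-binding partner of Drosha in miRNA processing, whose own message Drosha is known to cut. The highest value was that of R792A_C793A, and no mutant was called with the library total as scale. Under median-of-ratios scaling K566A was called lower, at a log2 ratio of -1.13.

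**Figure D1:**
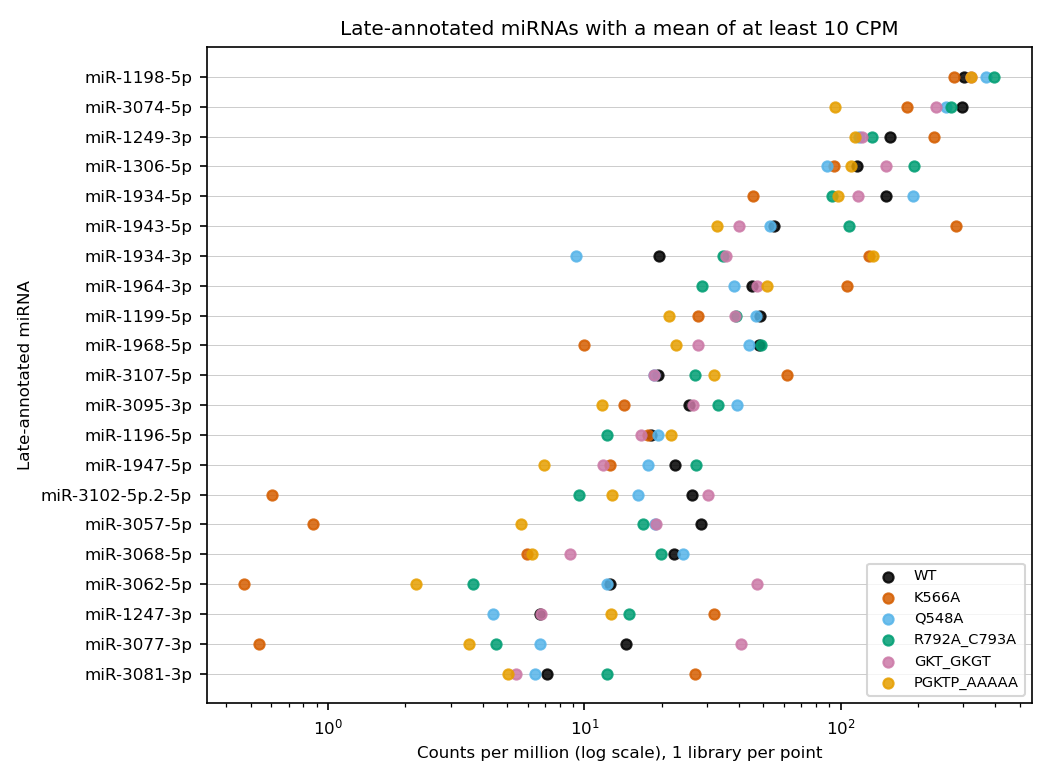
Level of each of the 21 late-annotated miRNAs that averaged 10 CPM or more (rows, ordered by mean) in the 6 Ago2 libraries, in CPM on a log axis, 1 library per point. The points of miR-1198-5p lie between 278 and 399 CPM, while those of miR-3102-5p.2-5p, miR-3057-5p, miR-3062-5p and miR-3077-3p have their K566A value under 1 CPM.

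The hairpin of miR-1934 gave 2 abundant members. It lies at 11:69476557-69476615, where the annotation (GENCODE M21) has no gene on its strand. Its 5p arm, miR-1934-5p, stood at 151, 45.7, 192, 92.2, 117 and 97.5 CPM in that order of libraries, and miR-1934-3p at 19.6, 129, 9.27, 34.6, 35.7 and 134 CPM. The arms changed places in K566A and PGKTP_AAAAA, where the 3p arm was the higher, and this is taken up with arm use below. miR-1943-5p (15:79205701-79205723, intron of Tmem184b) was at 55 CPM in wild type and 283 in K566A, 108 in R792A_C793A, 53 in Q548A, 40.1 in GKT_GKGT and 32.9 in PGKTP_AAAAA. It was the most abundant member of the K566A library, with 16.6% of the member counts there. Its 3p arm stood at 1.08% to 3.18% of the hairpin's counts in the Ago2 libraries.

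The other members among the 15 most abundant lay between 16 and 52.8 CPM on average. miR-1964-3p, in an intron of the zinc finger gene Zfp84, stood at 45.2, 106, 38.3, 28.8, 47.1 and 51.4 CPM, highest in K566A. miR-1199-5p, in an exon of 2210011C24Rik, stood at 48.5, 27.8, 46.7, 39.0, 38.7 and 21.3 CPM, lowest in PGKTP_AAAAA with the library total as scale. Under median-of-ratios scaling it was called lower in K566A and not in PGKTP_AAAAA. miR-1968-5p, in an intron of the Rab regulator gene Grtp1, stood at 48.0, 9.99, 44.0, 49.1, 27.7 and 22.8 CPM, lowest in K566A. Of the remaining 5, miR-1196-5p (12.2 to 21.9 CPM) and miR-3095-3p (11.8 to 39.5 CPM, in an intron of the lysophosphatidic acid receptor gene Lpar1) were called in no mutant with the library total as scale, while miR-3107-5p (18.7 to 61.9 CPM), miR-1947-5p (6.94 to 27.2 CPM, intron of Lmln) and miR-3102-5p.2-5p (0.603 to 30.4 CPM, intron of Arhgef17) were called in at least 1 mutant. Under median-of-ratios scaling miR-3095-3p was called lower in K566A (log2 ratio -1.67).

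Of the 199 members, 13 share bases with another row of the table, 7 with an older miRNA (miR-24, miR-338 or miR-486) and 6 with another member, and 2 of the 13 had a mean of at least 10 CPM. The sources used here do not say whether counting used the strand, so their counts are uncertain. miR-3074-5p overlaps miR-24-3p, an abundant older miRNA, by 20 bases at both of its loci (13:63402557-63402578 and a copy on chromosome 8), and the longest run over which the printed sequences are complementary is 20 bases. It had 28155 counts in wild type against 183622 for miR-24-3p, which is 15.3% as many. The ratio was 18.4% in K566A, 12.1% in R792A_C793A, 15.2% in Q548A, 20.2% in GKT_GKGT and 17.5% in PGKTP_AAAAA, and in the empty control 13 counts stood against 47. Member and older miRNA thus kept a ratio within 12.1% to 20.2% while the level of miR-3074-5p ran from 94.9 CPM in PGKTP_AAAAA to 297 CPM in wild type. miR-3074-2-3p, which overlaps the 5p arm of miR-24-2 over 20 bases, stood at 11.8% of its counts in wild type and between 10.7% and 40.5% in the mutants, highest in K566A.

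miR-3107-5p (8:24253099-24253120) overlaps miR-486-3p by 20 bases on a hairpin that RefSeq lists as another miR-486 gene. Its counts, 1837 in wild type, 923 in K566A, 1521 in R792A_C793A, 1771 in Q548A, 931 in GKT_GKGT and 800 in PGKTP_AAAAA, were identical to those of miR-486-5p in every library. The 2 names therefore stand for 1 measurement here. The row that it overlaps, miR-486-3p, had 242 counts in wild type. Without the 13 overlapping members, the share of the late-annotated miRNAs was 0.130% of counts in wild type and 0.108% in PGKTP_AAAAA.

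Each mutant was set against wild type over the 338 miRNAs that averaged 10 CPM or more, 21 of them members. The call rule asked that the whole 95% interval of the mutant-to-wild-type ratio (exact, conditional on the sum of both counts) be past 2-fold. In K566A, 6 members were called higher and 7 lower, where 47.3% of all 338 miRNAs were called higher and 19.5% lower. The median member lay at a log2 ratio of -0.71, and the median of the 317 others at 1.0. Under median-of-ratios scaling, which moves every K566A log2 ratio by -0.83, 3 members were higher and 12 lower. The falls added were those of miR-1306-5p, miR-3095-3p, miR-1199-5p, miR-1947-5p and miR-3074-5p. The share of all 338 miRNAs called was not taken under this scaling, so the 47.3% and 19.5% do not apply to these counts.

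The falls in K566A were the larger changes among the 21 members. miR-3102-5p.2-5p, from a hairpin that fills a short intron of Arhgef17 (7:108030881-108030901), had 2487 counts (26.2 CPM) in wild type and 9 counts (0.603 CPM) in K566A, a log2 ratio of -5.44 with an interval of -6.57 to -4.51. In the other libraries it stood at 16.2 (Q548A), 9.56 (R792A_C793A), 30.4 (GKT_GKGT) and 12.8 CPM (PGKTP_AAAAA), so K566A alone was under 1 CPM. miR-3057-5p (10:80734355-80734378), from a hairpin across an exon boundary of the adaptor gene Apba3, went from 28.5 CPM to 0.872 CPM, a log2 ratio of -5.03 (-5.94 to -4.25), and stood at 18.9, 17.0, 19.1 and 5.66 CPM in the other mutants, in their usual order. miR-3077-3p (14:58417303-58417324) had 14.6 CPM in wild type and 8 counts (0.536 CPM) in K566A, a log2 ratio of -4.76 (-5.98 to -3.78). Its hairpin touches the 3′ end of an intron of Sap18, and the mature sequence ends in ag, the letters that close most introns. miR-3062-5p (11:68804140-68804161), across an exon boundary of the purine synthesis gene Pfas, fell from 1196 to 7 counts (12.6 to 0.469 CPM). miR-1968-5p, miR-3068-5p and miR-1934-5p fell by 2.26, 1.90 and 1.72 on the log2 scale.

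Among the rises in K566A, miR-1934-3p gained 2.72 on the log2 scale (2.62 to 2.81), miR-1943-5p 2.36 (2.30 to 2.42) and miR-1247-3p 2.25 (2.07 to 2.42). miR-1247-3p, from an exon of the noncoding gene Dio3os next to the imprinted Dio3, stood at 6.73 CPM in wild type, 31.9 in K566A, 14.9 in R792A_C793A, 4.39 in Q548A, 6.75 in GKT_GKGT and 12.7 in PGKTP_AAAAA. miR-1247-3p and miR-3081-3p are the members that reached 10 CPM on average through K566A itself, so that their being compared at all rested on the library in which they were high. The 3 other rises were miR-3081-3p (1.92), miR-3107-5p (1.68) and miR-1964-3p (1.23), and these are the 3 that were not called under median-of-ratios scaling. Of the 7 tested members that begin with U, 1 was higher and 3 were lower in K566A, against 67 higher and 25 lower of 118 other miRNAs that begin with U. For A, 2 were higher and 1 lower of 5 (others 23 and 13 of 67). For C, 2 were higher and 1 lower of 4 (others 24 and 10 of 49). For G, 0 were higher and 2 lower of 3 (others 5 and 7 of 24). Over every member with a count in K566A or wild type, whatever its level, 17 of 143 were higher and 27 lower, where 34.0% of all miRNAs compared in this way were higher and 14.4% lower.

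In the Q548A library the late-annotated miRNAs lay close to wild type. None of the 21 members was called higher or lower, where 1.78% of the 338 miRNAs were higher and 4.44% lower, and the median member lay at -0.16 and the median of the others at 0.11. The extremes were miR-3077-3p at -1.12 and miR-3095-3p at 0.63. Under median-of-ratios scaling, miR-3077-3p (-1.21) and miR-1934-3p (-1.17) were called lower. Without a minimum level, 0 of 151 members were higher and 5 lower (0.855% and 3.79% of all), of which miR-3067-3p went from 744 counts to 144 and miR-3102-3p.2-3p from 777 to 230.

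In R792A_C793A no member was called higher and 3 were called lower, where 15.7% of the 338 miRNAs were higher and 6.8% lower. The falls were miR-3062-5p, at 3.66 against 12.6 CPM (log2 ratio -1.79, interval -2.01 to -1.57), miR-3077-3p, at 4.53 against 14.6 CPM (-1.68, -1.88 to -1.49), and miR-3102-5p.2-5p, at 9.56 against 26.2 CPM (-1.46, -1.59 to -1.32). Under median-of-ratios scaling miR-1934-5p was called lower too, at -1.06. The median member lay at -0.13 and the median of the others at 0.45. Without a minimum level, 8 of 149 members were higher and 11 lower (10.6% and 4.79% of all). The highest ratio among these with counts in wild type was that of miR-1249-5p, which went from 58 to 351 counts.

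GKT_GKGT had 2 members higher and 1 lower, where 10.9% of the 338 miRNAs were higher and 11.8% lower. The members that rose were among those that fell in K566A: miR-3062-5p stood at 47.1 CPM against 12.6 in wild type (log2 ratio 1.90, 1.8 to 2.0) and miR-3077-3p at 41.0 against 14.6 CPM (1.49, 1.39 to 1.59). Both rose in the library that alone carried them past the 10 CPM asked for, so these 2 rises are given as a description. miR-3068-5p, in an intron of the demethylase gene Alkbh1, fell to 8.80 from 22.3 CPM (-1.34, -1.49 to -1.19). The median member was at -0.13 and the median of the others at -0.30. Without a minimum level, 11 of 147 members were higher and 4 lower (9.28% and 9.03% of all). Among them miR-3067-3p rose from 7.84 to 36.8 CPM (2.23, 2.11 to 2.36), close to miR-1199-5p at 38.7 CPM in the same library.

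PGKTP_AAAAA had 1 member higher and 7 lower, where 7.1% of the 338 miRNAs were higher and 33.4% lower. The rise was miR-1934-3p, from 19.6 to 134 CPM (log2 ratio 2.77, 2.69 to 2.86). The largest falls were miR-3062-5p, to 2.21 CPM (-2.51, -2.93 to -2.12), miR-3057-5p, to 5.66 CPM (-2.33, -2.59 to -2.09), and miR-3077-3p, to 3.53 CPM (-2.04, -2.37 to -1.73). miR-3068-5p, miR-1947-5p, miR-3074-5p and miR-1199-5p fell by 1.83, 1.70, 1.65 and 1.18 on the log2 scale. The last 4 were no longer called under median-of-ratios scaling, which moves the log2 ratios here by 0.63. The median member lay at -0.74 and that of the others at -0.53. Without a minimum level, 4 of 143 members were higher and 32 lower (4.76% and 24.8% of all). All mutants share the wild-type library, so their ratios are not independent of each other.

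**Figure D2:**
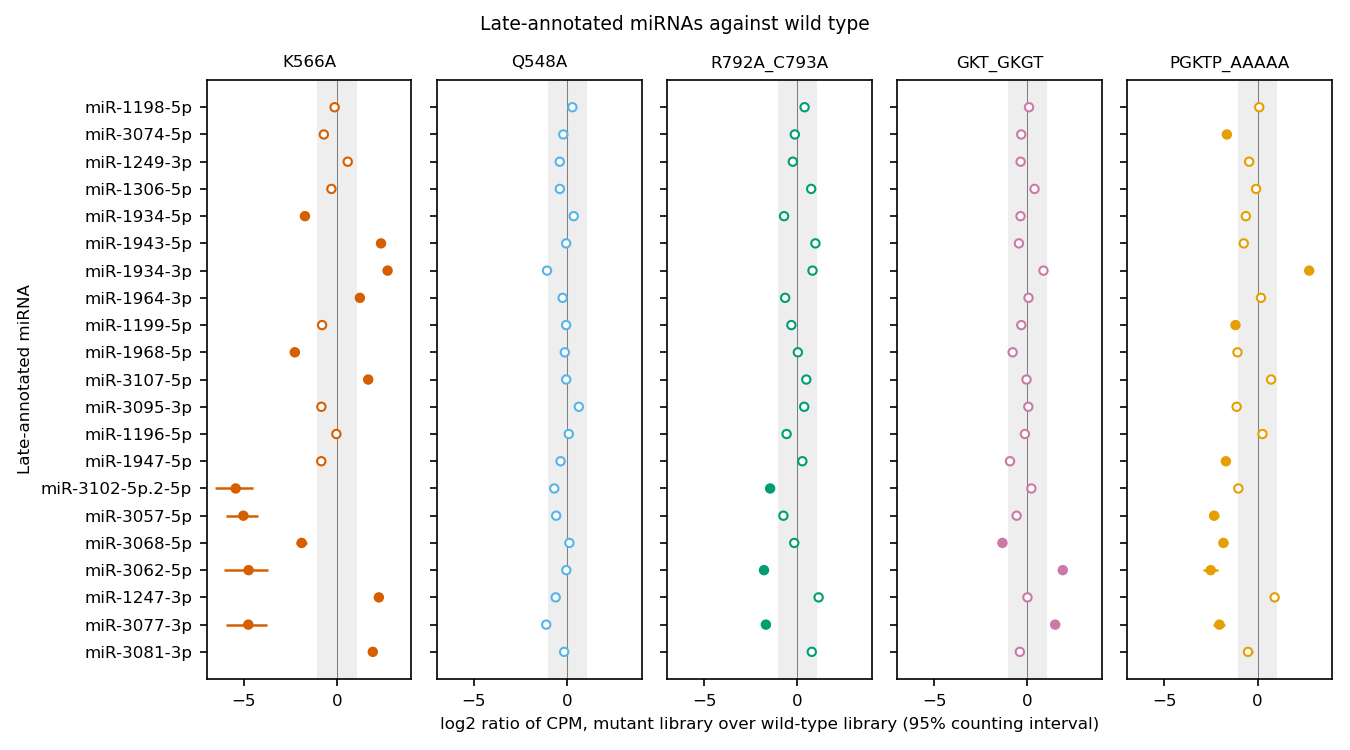
log2 ratio of CPM to wild type for the 21 late-annotated miRNAs (rows, same order as in the plot of levels) in each mutant, with exact conditional 95% counting intervals as bars, 1 library per group. Filled points were called, and the grey band spans 2-fold either way. miR-3062-5p and miR-3077-3p are called lower in K566A, R792A_C793A and PGKTP_AAAAA and higher in GKT_GKGT, and Q548A has no filled point.

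Arm use sets the 2 strands of a hairpin against each other within a library, so the library's size and the amount of the hairpin drop out. Of 100 late-annotated hairpins with both arms in the table, 60 had at least 100 counts over the 6 Ago2 libraries, among 403 such hairpins in all. The major arm, with more counts in that sum, was 5p in 30 and 3p in 30. In wild type, 36 of the 60 had over 90% of their counts on 1 arm, and 5 had a 5p share between 40% and 60%. The same rule was applied in each mutant to the odds of minor over major arm against those of wild type.

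miR-1934 was called in all 5 mutants. Its 5p arm, which begins with U, held 88.5% of the reads of the hairpin for wild type (14283 of 5p, 1860 of 3p), 26.2% in K566A, 72.7% in R792A_C793A, 95.4% in Q548A, 76.5% in GKT_GKGT and 42.1% in PGKTP_AAAAA. The 3p arm, which begins with A, was thus the major strand in K566A and PGKTP_AAAAA and the minor strand elsewhere. The odds of 3p over 5p were 21.7 times those of wild type in K566A (19.6 to 23.9) and 10.6 times in PGKTP_AAAAA (9.84 to 11.3). The empty control, with 7 counts of 5p and 1 of 3p, allowed a 5p share from 47.3% to 99.7%.

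miR-3067 (12:82267152-82267210, intron of Smoc1) pairs a 5p arm that begins with A and a 3p arm that begins with C. Its 5p share was 31.4% in wild type (341 of 5p, 744 of 3p), 5.26% in K566A (1 and 18 counts), 56.7% in R792A_C793A, 56.9% in Q548A, 2.45% in GKT_GKGT and 4.73% in PGKTP_AAAAA. The shares fell on both sides of wild type. The odds of 5p over 3p were 0.0549 times those of wild type in GKT_GKGT (0.0390 to 0.0759) and 0.108 times in PGKTP_AAAAA (0.0424 to 0.233), and 2.88 times in Q548A (2.22 to 3.73).

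For miR-3068 (12:88778635-88778697), the 5p arm begins with U and the 3p arm with G. The 5p share was 63.2% in wild type (2113 and 1231 counts), 70.1% in K566A, 78.7% in R792A_C793A, 80.8% in Q548A, 36.3% in GKT_GKGT and 89.7% in PGKTP_AAAAA. GKT_GKGT had the 3p arm as its major strand, and PGKTP_AAAAA had the highest 5p share of the 6 libraries. The odds of 3p over 5p were 3.01 times those of wild type in GKT_GKGT (2.62 to 3.46) and 0.198 times in PGKTP_AAAAA (0.114 to 0.326). These mutants, whose labels share the letters GKT, stood on opposite sides of wild type for this hairpin.

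**Figure D3:**
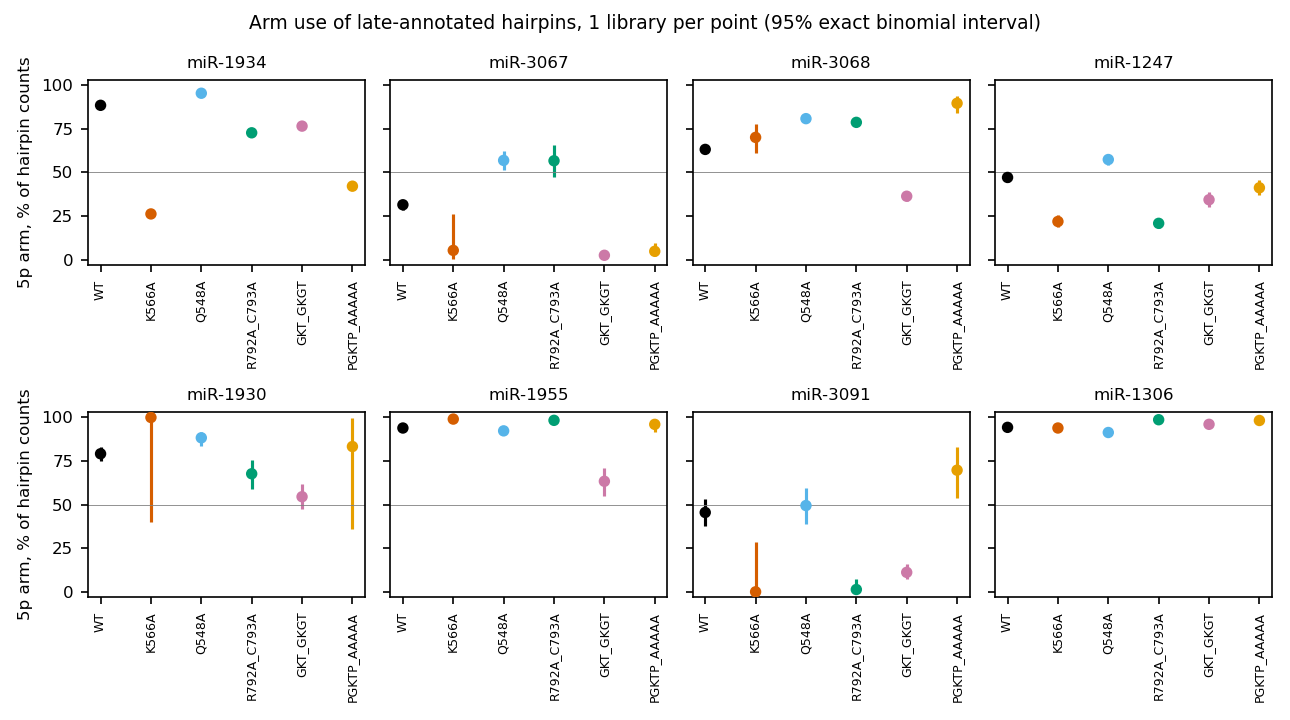
Share of the 5p arm among the counts of 8 late-annotated hairpins, in percent, for each of the 6 Ago2 libraries (1 library per point, bars are exact binomial 95% intervals). miR-1934 runs from 26.2% in K566A to 95.4% in Q548A, miR-3067 is under 6% in K566A, GKT_GKGT and PGKTP_AAAAA, and miR-3068 is under 50% in GKT_GKGT alone.

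In K566A, 6 hairpins of members had a higher minor arm and 3 a lower one, where 19.1% and 18.6% of all 403 hairpins were called. Beside miR-1934, the largest gains were those of miR-3077, with 6 counts of 5p and 8 of 3p against 7 and 1381 in wild type (odds ratio 148, 32.1 to 638), and of miR-3096b, with 12 and 1 against 12 and 39 (39.0, 4.60 to 1708). The few counts in K566A leave these ratios wide. The losses were those of miR-1199, where 1 count of 3p stood beside 415 of 5p (odds ratio to wild type 0.0149, 0.000375 to 0.0837), miR-3091, with 0 of 5p beside 11 of 3p (at least 3.06-fold lower odds), and miR-1247. The 5p share of miR-1247 was 47.1% in wild type and 21.8% in K566A.

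Q548A had 3 hairpins with a higher and 3 with a lower minor arm (3.72% and 5.46% of all). The gains were miR-1933, whose 5p share went from 8.79% to 24.7%, miR-3067 and miR-1843b. The losses were miR-3097, miR-1934 and miR-3068. R792A_C793A had 3 higher and 4 lower (8.19% and 11.9%). miR-1249-5p, the minor strand of an abundant hairpin, went from 58 to 351 counts there (0.612 to 6.26 CPM). Its 3p partner had 14802 counts in wild type and 7419 there, which is 156 and 132 CPM, and was not called. The 5p share rose from 0.390% to 4.52% (odds ratio 12.1, 9.11 to 16.3). In K566A that share was 3.93%, and in Q548A, GKT_GKGT and PGKTP_AAAAA it was 0.231%, 0.248% and 0.0351%. The other gains in R792A_C793A were miR-3102 and miR-1934, and the losses were miR-3091 (1 count of 5p beside 75 of 3p; odds ratio 0.016, 0.000394 to 0.0975), miR-3097, miR-1306 and miR-1247.

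GKT_GKGT had 7 hairpins with a higher and 5 with a lower minor arm (17.4% and 12.2% of all). The largest gains were miR-3081, from 3 counts of 5p beside 678 of 3p to 15 beside 268 (odds ratio 12.6, 3.53 to 68.5), miR-1947, whose 3p share went from 0.651% to 7.58%, and miR-1955, whose 3p share went from 6.04% to 36.6%. The largest losses were miR-3067, miR-1929, whose 5p share went from 58.1% to 8.45%, and miR-3076, with 0 counts of 5p beside 94 of 3p (at least 6.91-fold lower odds). PGKTP_AAAAA had 4 higher and 4 lower (6.7% and 17.9%). The gains were miR-3063, with 5 counts of 5p beside 17 of 3p where wild type had 0 beside 468 (at least 45.9-fold higher odds), miR-3084, miR-1934 and miR-1947. The losses were miR-3076, miR-3067, miR-3068 and miR-1306.

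Grouped by the first base of the arms, 46 of the 60 hairpins had both sequences in RefSeq. Only those whose arms differ in first base were used, with more than 3 counts of each arm in the mutant or wild type. In GKT_GKGT, the ratio of an arm with first base C to an arm with first base A was higher than in wild type in 6 of 6 member hairpins, with a median log2 change of 1.17 (0.56 for miR-1306 to 4.17 for miR-3067), and in 19 of 20 other hairpins with a median of 2.04. The C arm was also higher against a U arm in 3 of 3 (median 3.14), beside 47 of 48 others (2.41). The G arm was higher against a U arm in 3 of 4, with miR-3074-2 at -1.70, beside 24 of 29 others. Of the 4, miR-3081 was used only through its 15 counts of the G arm in GKT_GKGT, against 3 in wild type. miR-3084 had 2 counts of its U arm in GKT_GKGT, and both arms of miR-3074-2 overlap miR-24 rows. In PGKTP_AAAAA the C arm was higher against the A arm in 6 of 6 (median 1.49), beside 16 of 20 others (2.08). The same pair was higher in 4 of 6 in K566A, 3 of 6 in R792A_C793A and 1 of 6 in Q548A. For U against A, the number of hairpins that moved up differed between the mutants in another way. In Q548A the U arm was higher against the A arm in 6 of 6 member hairpins (median 1.28, others 33 of 47 and 0.67), and in R792A_C793A in 0 of 6 (median -0.73, others 20 of 46 and -0.22). Of these, miR-1968 (-0.05) and miR-3057 (-0.12) hardly changed in R792A_C793A, and miR-3109 had 70 and 0 counts in Q548A. For U against A the count was 3 of 6 in K566A, 2 of 6 in GKT_GKGT and 4 of 6 in PGKTP_AAAAA. In PGKTP_AAAAA miR-3109 had 0 counts of both arms, so its change of -3.44 reflects only the pseudocount and wild type. In K566A miR-3085 had 1 count of the U arm and 0 of the A arm. Not every pair of bases is given. All these changes carry a pseudocount of 0.5, come from few hairpins and were not tested against the others. Some rest on an arm with 0 counts, such as miR-1933 in PGKTP_AAAAA (36 of the C arm, 0 of the A arm).

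The position of a hairpin in its host gene was read from RefSeq hairpins and GENCODE M21, both on GRCm38, for 83 of 99 loci. Of these, 45 lay inside an intron, 15 filled an intron or touched 1 of its ends within 5 bases, 9 lay in an exon, 2 spanned an exon boundary, and 12 had no gene on their strand. The classes, and a minimum of 200 counts over the Ago2 libraries, were chosen after values had been seen, so what follows is a description. Counts under 3 were taken as 3. Of the 12 members from the end of an intron, 4 are arms of the 1 hairpin of miR-3102 and so share their source. Of the 3 across an exon boundary, miR-3057-5p and miR-3057-3p are likewise arms of 1 hairpin. In K566A, these 12 had a median log2 ratio of -1.46, with 5 called lower and 0 higher, and the 3 from hairpins across an exon boundary lay at -5.03, -4.75 and -3.62. The 31 members from inside introns had a median of -0.83, with 6 higher and 9 lower, and the lowest, miR-3067-5p, lay at -4.16. The 10 from exons had a median of -0.31, with 2 higher and 3 lower, and the lowest, miR-1199-3p, lay at -5.29. Deep falls in K566A thus also occurred outside the intron-end and exon-boundary classes. All 70 members of at least 200 counts had a median of -0.84, with 12 higher and 26 lower, and the 495 others 0.97, with 224 higher and 85 lower. Of all 565 miRNAs with this many counts, 41.8% were called higher and 19.6% lower.

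The intron-end members differed among themselves. miR-3102-5p.2-5p, miR-3077-3p, miR-3102-3p.2-3p, miR-3064-5p and miR-1224-5p lay between -5.44 and -2.96 in K566A, while miR-1231-5p, from the 3′ end of an intron of Nav1, lay at 0.72. miR-3064-5p, in an intron of the helicase gene Ddx5, had 203 counts in wild type and 1 in K566A. Its log2 ratio was -3.41 with the 1 taken as 3, and -5.00 on the counts as they are (interval -10.31 to -2.50). miR-1224-5p, from a short intron of Vwa5b2, had 148 and 0, which is at least 7.76-fold lower. In GKT_GKGT the 12 had a median of 0.25 with 2 higher and 0 lower, beside 0.02 for all 70 members and -0.33 for the 495 others, where 10.6% of the 565 miRNAs were higher and 11.9% lower. In PGKTP_AAAAA their median was -1.0 with 0 higher and 5 lower, beside -1.01 for all 70 members, -1.24 for the 10 from exons and -0.72 for the others, where 5.49% were higher and 33.1% lower.

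**Figure D4:**
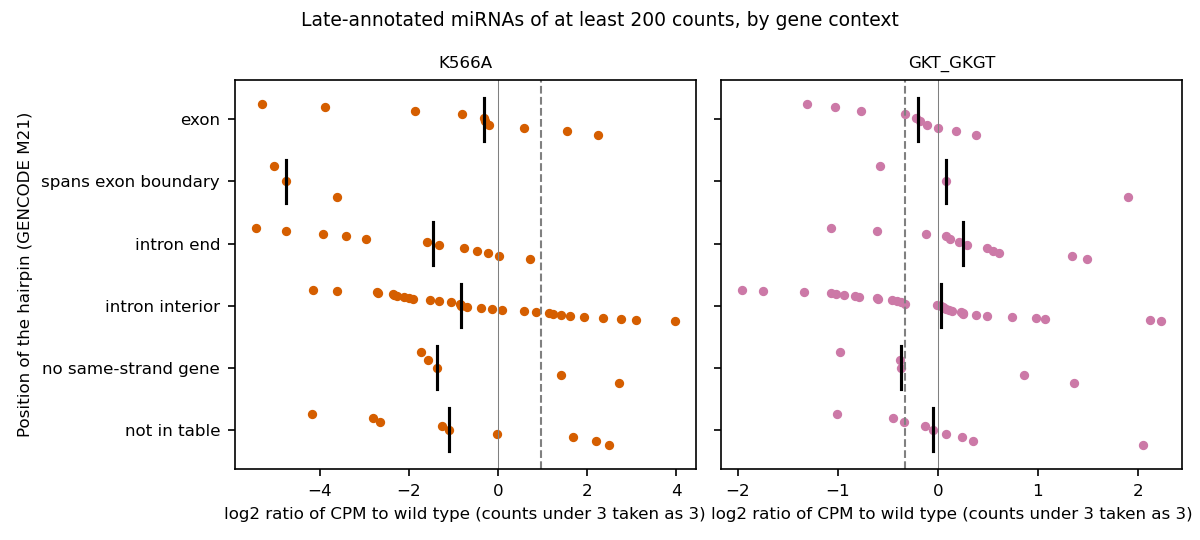
log2 ratio of CPM to wild type (counts under 3 taken as 3) for the 70 late-annotated miRNAs with at least 200 counts, by position of the hairpin in the annotation, in K566A and GKT_GKGT. Each point is 1 miRNA in 1 library per group, black bars are medians, and the dashed line is the median of the 495 other miRNAs, 0.97 in K566A and -0.33 in GKT_GKGT. The 3 members across an exon boundary, among them both arms of miR-3057, lie at or below -3.62 in K566A. The median of the intron-end members there is -1.46, and the lowest exon member lies at -5.29.

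Of the 199 members, 21 had counts in the empty control, all of them few. miR-3074-5p led with 13 counts, followed by miR-1198-5p with 11, miR-1934-5p with 7 and miR-1249-3p with 5, the members that were also among the most abundant with Ago2. For miR-1198-5p, 11 counts of 33466 amount to 329 CPM with an interval of 164 to 588 CPM, which spans its level in every Ago2 library. The 178 members at 0 in the empty control are bounded by its limit of 89.6 CPM.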

How the data were processed

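The data are 7 small RNA libraries from Flag-Ago2 precipitates. CASAVA 1.8.2, TopHat2 2.0.9 and mm9 are named in the submitters' processing notes. The authors deposited raw read counts, not normalized, per mature miRNA locus. The sources used here do not give the counting program, its strand setting, the miRNA release or the handling of multi-mapping reads. A name with several loci was counted by its highest locus in each library, and names with equal counts (within 1% or 3 counts in every library, sum at least 200) were merged. CPM used the total as library size. A 5p and a 3p row within 150 nt formed a hairpin. Intervals are exact, with Woolf's interval where all 4 counts reached 500. Scripts ran in Python 3.11.15 with pandas 2.3.3, numpy 2.4.6 and scipy 1.17.1, and the intervals were checked on simulated counts. RefSeq and GENCODE M21 coordinates on GRCm38 were used for gene context only, and printed coordinates are those of the deposited table. Named were the 15 most abundant members, up to 3 called rises and 3 falls per mutant for levels and for arms, overlapping members with at least 10 CPM and members at the edge of a range; others named without a minimum level or by gene context were chosen after their values were seen. The members and lists were chosen with earlier results of these data known. Alternatives tried were median-of-ratios scaling, no minimum level, summed loci, overlapping members left out, a 1.5-fold threshold and a higher hairpin minimum.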

Additional observations from a re-analysis of the deposited data

How the results depend on the processing

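No paired analysis was possible because each group had 1 library and the labels give no replicate numbers. With median-of-ratios scaling, members called higher and lower were 3 and 12 in K566A, 3 and 3 in PGKTP_AAAAA, and 2 were lower in Q548A and 4 in R792A_C793A. Without a minimum level, 17 were higher and 27 lower in K566A, 5 lower in Q548A, 8 higher and 11 lower in R792A_C793A, 11 and 4 in GKT_GKGT, and 4 and 32 in PGKTP_AAAAA, with more members compared by construction. Past 1.5-fold, 11 were lower in K566A, 3 lower in Q548A, 5 higher and 5 lower in R792A_C793A, 3 lower in GKT_GKGT, and 3 higher and 11 lower in PGKTP_AAAAA. For arms, the 1.5-fold threshold gave 6 higher and 8 lower minor arms in Q548A and 5 higher in R792A_C793A, and a minimum of 1000 counts left 2 lower in R792A_C793A and 1 in GKT_GKGT. Only for the calls without a minimum level was the share over all miRNAs taken, and it is given with each mutant above. The other numbers of calls in this paragraph have no such share and describe the members alone. Of 105 log2 ratios (21 members in 5 mutants), none changed direction where called; median-of-ratios scaling ended 7 calls and added 10. The share of counts held by the members, in the order wild type, K566A, Q548A, R792A_C793A, GKT_GKGT and PGKTP_AAAAA, was 0.190%, 0.177%, 0.179%, 0.192%, 0.181% and 0.129% with all loci summed, and 0.130%, 0.144%, 0.128%, 0.139%, 0.132% and 0.108% without the overlapping members. With miR-292-5p, the most abundant miRNA, left out of the total it was 0.449%, 0.217%, 0.449%, 0.397%, 0.541% and 0.3998%, and 0.521% in the empty control. K566A, with the highest share on the full total, then had the lowest of the 6. The cause of these changes was not tested. K566A and PGKTP_AAAAA have the lowest depth of the Ago2 libraries, and members under about 1 CPM rest on few counts there.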

Other observations

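Some members shared their seed with another mouse miRNA in RefSeq, and those whose partner also had a level here are named below. Among themselves, the 161 matched members had 159 different seeds. miR-1947-3p shares its seed with the older miR-674-5p, and the 2 sequences also begin with the same base:
miR-1947-3p: gCACUGAGcuagcucucccucc
miR-674-5p: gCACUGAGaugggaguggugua
miR-1947-3p had a mean of 0.416 CPM over the Ago2 libraries and miR-674-5p 19.7 CPM, so the older name held nearly all reads of this pair. miR-3473d has the same seed, and no level was available for it. miR-1943-5p, at a mean of 95.3 CPM, shares its seed with the 3p arm of the older miR-149, which had 0.185 CPM. The same seed is found in miR-6967-5p and miR-7016-5p, for which no level was available. miR-3064-5p (1.69 CPM) and miR-3085-3p (0.308 CPM) are both members and share a seed with each other.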
